A study of Mus musculus with 2 samples.

Results

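Pou5f1, Sox2, Nanog and Sall4 encode core transcription factors of the pluripotent state, and their transcripts were followed through mouse induced pluripotent stem cells (iPSCs) with and without serum response factor. These 4 genes were picked by name out of the 27998 genes in the expression matrices, and all 4 were found. Cells of genotype SRFΔ/Δ, called the knockout, were compared with cells of genotype SRFf/f, which keep the floxed alleles and are called wild type. Both were grown with serum and captured on the 10x Genomics Chromium droplet system, with sequencing on an Illumina NovaSeq. Each genotype has 1 library, and the labels name no clone, passage or culture behind it, so every difference is between these libraries and has no replicate check. No p-value is given. Intervals are at 95%, take each unique molecular identifier (UMI, the tag of 1 captured RNA molecule) as independent, and so cover counting error alone.

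Pou5f1 encodes OCT4, a POU-domain factor that binds DNA together with the HMG-box factor SOX2, and the pair occupies enhancers of many pluripotency genes, their own included. Nanog encodes a homeodomain protein that stabilises self-renewal and is known to fluctuate between cells in serum culture. Sall4 encodes a zinc-finger factor that binds near OCT4 and supports Pou5f1 transcription. Primitive endoderm, the first extraembryonic endoderm of the blastocyst, is set apart from the epiblast by mutual antagonism of NANOG and GATA6, and it is known to keep SALL4 and, for a time, OCT4.

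Pou5f1 (ENSMUSG00000024406) lies on chromosome 17 from 35506018 to 35510772 on the plus strand in GRCm38, and Sox2 (ENSMUSG00000074637) on chromosome 3 from 34650405 to 34652461, also on the plus strand. Nanog (ENSMUSG00000012396) lies on chromosome 6 from 122707489 to 122714633 on the plus strand, and Sall4 (ENSMUSG00000027547) on the minus strand of chromosome 2, from 168748332 to 168767943. All 4 are protein-coding genes of the GENCODE M21 annotation. Sox2 sits inside the noncoding gene Sox2ot on the same strand, which has no row of its own in the matrices. An antisense gene over Pou5f1, Gm19553, held 2 knockout and 9 wild-type UMIs in the analysed cells.

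The promoter windows below are shown with the octamer and SOX words that the OCT4 and SOX2 pair is known to bind, since these genes belong to one circuit. RefSeq (GRCm38.p6) has an entry for 3 of the 4 genes, and bases are printed up to the RefSeq start or the GENCODE start, whichever comes first. Capitals mark matches to the octamer core ATGCAAA or the SOX core ACAATG on either strand, including where both stand side by side as the composite element TTTGCATNACAATG.
Nanog promoter, chr6:122707239-122707488, plus strand: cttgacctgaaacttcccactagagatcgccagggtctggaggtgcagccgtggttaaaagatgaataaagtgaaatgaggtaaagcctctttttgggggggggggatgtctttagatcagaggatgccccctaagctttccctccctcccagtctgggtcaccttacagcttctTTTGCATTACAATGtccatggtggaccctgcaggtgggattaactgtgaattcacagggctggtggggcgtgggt
Sox2 promoter, chr3:34649745-34649994, plus strand: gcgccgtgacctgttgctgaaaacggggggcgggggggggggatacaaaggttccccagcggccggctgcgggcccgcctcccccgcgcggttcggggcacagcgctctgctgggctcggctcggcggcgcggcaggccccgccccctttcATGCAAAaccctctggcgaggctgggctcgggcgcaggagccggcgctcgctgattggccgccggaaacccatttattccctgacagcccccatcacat
Pou5f1 promoter, chr17:35505782-35506017, plus strand: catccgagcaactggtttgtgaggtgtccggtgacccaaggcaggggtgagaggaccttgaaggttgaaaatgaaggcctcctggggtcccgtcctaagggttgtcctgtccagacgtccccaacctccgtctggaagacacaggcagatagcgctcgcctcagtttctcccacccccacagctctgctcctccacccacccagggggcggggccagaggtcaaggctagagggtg
Sall4 is named only. The composite element begins 75 bases before the Nanog start, and it contains the octamer core on the minus strand and the SOX core on the plus strand. Of 32851 windows of 300 bases in the table, 2 hold this composite (0.00609%), and both belong to Nanog. The Sox2 window has an octamer core 99 bases before its RefSeq start, which lies upstream of the GENCODE start given above. That word was found in 4.63% of all windows, and the SOX core alone was in 12.6%. The GC box GGGCGG, found in 35.7% of windows, was present in the Pou5f1 and Sox2 windows. The CArG box, the word bound by SRF, was in 1.63% of windows and had no match in these 3. Matches in the 3 genes were sought in the printed 236 to 250 bases only, whereas the percentages are over windows of 300 bases. A match is a description of the letters and no evidence of binding.

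The knockout library held 1073 cells and the wild-type library 954, with medians of 20605 and 25907 UMIs per cell. The libraries shared 2 cell barcodes. Srf had 3 UMIs (0.165 CPM, counts per 1000000 UMIs of the sum) in the analysed knockout cells and 199 (8.62 CPM) in the wild-type cells. Analysed cells had at least 1000 detected genes and 1 to 10% of UMIs from mt- genes, and cells with 20 or more UMIs of 8 fibroblast genes, called fibroblast-like, were set aside as a background population, as were 2 knockout and 5 wild-type called doublets. This left 730 knockout cells (18145066 UMIs in sum) and 887 wild-type cells (23091472 UMIs). Under 1% of mt- UMIs were 246 knockout and 17 wild-type cells, and the lower mt- limit alone took out 243 and 16 of them. Of the knockout cells, 94 (12.9%) carried 10 or more UMIs over the endoderm genes Gata6, Gata4, Sox17, Pdgfra, Dab2, Cubn, Lrp2 and Amn and are called endoderm-high, and 636 are called other knockout cells. Only 3 wild-type cells (0.338%) passed that cut. It is a range on a score and not a cell type, with 15 knockout cells at 5 to 9 UMIs and 13 at 10 to 14. Other knockout cells were not free of these transcripts, although none of the 8 genes averaged 10 CPM there and in wild-type cells. Of the 8, 4 were at least 1.25-fold higher in other knockout than in wild-type cells and 4 lay within that fold. Gata6 had 106 UMIs (6.66 CPM) against 21 (0.909 CPM).

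At least 1 Pou5f1 UMI was found in 878 of 887 wild-type and 711 of 730 knockout cells. That alone does not establish the iPSC label of a cell. Of 22 fibroblast-like knockout-library cells 8 had such a UMI too, and the 711 include 80 of the 94 endoderm-high cells. Outside the endoderm-high cells, the levels of Pou5f1, Sox2 and Sall4 in the knockout library lay within 1.25-fold of wild type, while Nanog was lower. In the endoderm-high cells Sox2 was 11.9-fold lower than in the other knockout cells, Pou5f1 was 1.64-fold lower and Sall4 was 1.41-fold higher. Nanog had only 8 UMIs there, a level not above that of fibroblast-like cells.

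Pou5f1 stood at 809 CPM (interval 797 to 820, 18675 UMIs) in wild-type cells, 749 CPM (735 to 762, 11918 UMIs) in other knockout cells and 457 CPM (429 to 485, 1018 UMIs) in endoderm-high cells. It was thus slightly lower in the knockout library and clearly lower in its endoderm-high cells. The fibroblast-like cells of the knockout library gave 17.0 CPM from 11 UMIs, at a median of 26799 UMIs per cell against 24622 in other knockout cells and 22660.5 in endoderm-high cells. The log2 ratio of other knockout over wild-type cells was -0.11 (interval -0.14 to -0.08), and that of endoderm-high over other knockout cells was -0.71 (-0.81 to -0.62).

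Sox2 stood at 202 CPM (196 to 208, 4659 UMIs) in wild-type cells, 215 CPM (208 to 223, 3428 UMIs) in other knockout cells and 17.9 CPM (12.8 to 24.4, 40 UMIs) in endoderm-high cells. The fibroblast-like knockout-library cells had 1 UMI (1.55 CPM). Sox2 therefore differed little between other knockout and wild-type cells, with a log2 ratio of 0.09 (0.03 to 0.16). The Sox2 ratio was -0.07 when cells under 1% mt- UMIs were included. Between endoderm-high and other knockout cells its ratio was -3.57 (-4.07 to -3.14), rank 11 from the lowest of the 6970 genes that averaged 10 CPM or more. Because the endoderm-high cells are part of the library, the ratio over all knockout cells was -0.08 (-0.14 to -0.01), on the other side of 0.

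Nanog stood at 102 CPM (97.7 to 106, 2349 UMIs) in wild-type cells, 70.8 CPM (66.7 to 75.1, 1127 UMIs) in other knockout cells and 3.59 CPM (1.55 to 7.07, 8 UMIs) in endoderm-high cells. These levels do not overlap within counting error, and Nanog had the lowest genotype ratio of the 4 genes. Its log2 ratio of other knockout over wild-type cells was -0.52 (-0.63 to -0.42), rank 238 from the lowest of 6457 genes, and over all knockout cells it was -0.70 (-0.81 to -0.60), rank 103 of 6545. With cells under 1% mt- UMIs included, the ratio for other knockout cells was -0.30. In endoderm-high against other knockout cells the ratio was -4.22 (-5.52 to -3.32), rank 3 of 6970. The fibroblast-like knockout-library cells had 1 Nanog UMI (1.55 CPM, interval 0.0392 to 8.63), so the level in endoderm-high cells was not above background and the ratio gives only a lower limit to the size of the difference.

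Sall4 stood at 70.4 CPM (67.0 to 73.9, 1626 UMIs) in wild-type cells, 79.7 CPM (75.4 to 84.2, 1269 UMIs) in other knockout cells and 113 CPM (99.1 to 127, 251 UMIs) in endoderm-high cells. It was the only one of the 4 whose level was highest in the endoderm-high cells. No Sall4 UMI was found in the fibroblast-like knockout-library cells, which allows up to 4.64 CPM. The log2 ratio was 0.18 (0.07 to 0.29) for other knockout over wild-type cells and 0.50 (0.30 to 0.69) for endoderm-high over other knockout cells. The genotype ratio was -0.02 when each cell was weighted alike, so its direction was not stable.

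**Figure D1:**
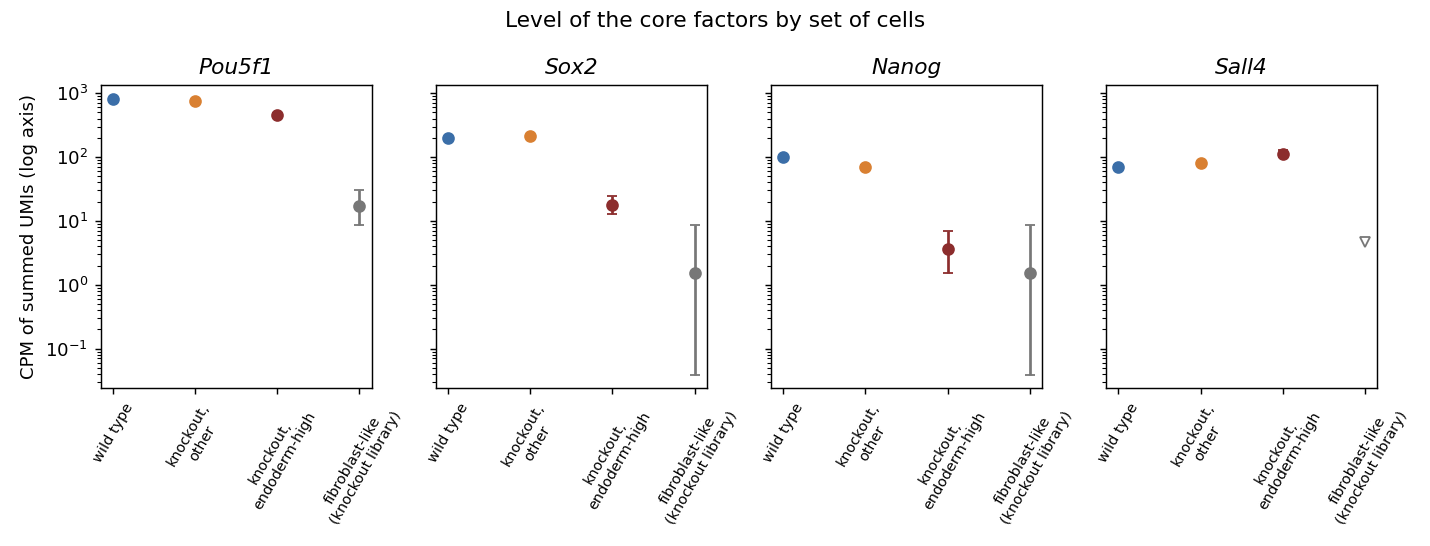
Level of each gene as CPM of the summed UMIs (log axis) in wild-type cells, other knockout cells, endoderm-high knockout cells and fibroblast-like cells of the knockout library, with points for the sums, bars for exact 95% Poisson intervals (hidden by the point where narrow) and an open triangle for the limit that 0 UMIs allow. Nanog is at 102, 70.8 and 3.59 CPM in the first 3 sets, while Sall4 is at 70.4, 79.7 and 113 CPM.

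Against all genes, 1 of the 4 (Nanog) was at least 1.25-fold lower in other knockout than in wild-type cells, where 9.76% of 6457 genes were, and none was 1.25-fold higher, where 17.6% were. Nanog did not pass that fold in cells of usual chromosome 8 share (log2 ratio -0.17, the split by chromosome 8 is given below) or with cells under 1% mt- UMIs included (-0.30). Over all knockout cells Nanog was again the 1 gene past that fold in the lower direction, against 9.24% of 6545 genes, and none was higher, against 21.9%. The median ratio of the 4 was -0.01 in other knockout cells and the median of all genes was 0.06, so as a group the factors stood near the bulk of the transcriptome. In endoderm-high against other knockout cells 3 of the 4 were at least 1.25-fold lower, against 21.3% of 6970 genes, and Sall4 was higher, against 38%. Sox2 and Nanog were at least 2-fold lower, as were 4.96% of genes. Scaling by trimmed means (TMM) in place of the library total lowered every ratio by 0.07 for other knockout over wild-type cells, by 0.11 for all knockout over wild-type cells and by 0.17 for endoderm-high over other knockout cells, and it turned no direction among these ratios.

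The proportions of the 4 transcripts within a set of cells differed as well. There were 4.01 Pou5f1 UMIs per Sox2 UMI in wild-type cells, 3.48 in other knockout cells and 25.5 in endoderm-high cells. Per Nanog UMI the Pou5f1 count was 7.95, 10.6 and 127 in the same order, and per Sox2 UMI the Sall4 count was 0.349, 0.370 and 6.28.

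The level of each gene was next read along the endoderm score within the knockout library, in bins of 0, 1, 2 to 4, 5 to 9, 10 to 19, 20 to 49, 50 to 99 and 100 or more endoderm UMIs, which held 439, 141, 41, 15, 23, 23, 27 and 21 cells. Nanog went from 74.5, 70.3 and 56.1 CPM in the first 3 bins to 6.42 CPM at 5 to 9 UMIs and was between 1.60 and 6.16 CPM beyond. Sox2 was at 213, 231 and 227 CPM, then at 67.4 CPM at 5 to 9 UMIs, 39.0 at 10 to 19, 21.6 at 20 to 49 and under 10 CPM in the last 2 bins. Both were thus already low in cells just below the endoderm-high cut, although the bin of 5 to 9 UMIs has only 15 cells, with 2 Nanog and 21 Sox2 UMIs.

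Pou5f1 followed another course. It was at 750, 762, 699 and 723 CPM in the 4 bins under the cut and at 649, 595, 390 and 227 CPM in the 4 bins above it, so its lower level was spread over the upper bins. Sall4 was at 79.8, 77.8, 88.7 and 70.7 CPM under the cut and at 96.5, 101, 120 and 130 CPM above it. Over the 94 endoderm-high cells, the Spearman correlation with the endoderm share of a cell's UMIs was -0.62 for Pou5f1 and 0.22 for Sall4. These are descriptions over cells of 1 library, and both measures share each cell's total.

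**Figure D2:**
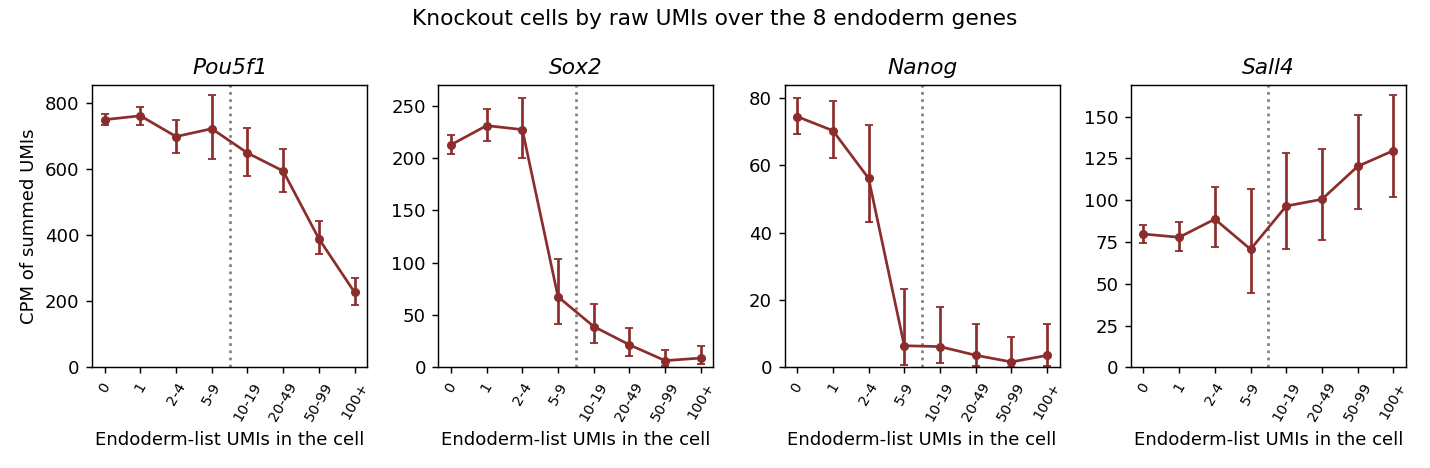
CPM of the summed UMIs of each gene in knockout cells grouped by their raw UMIs over the 8 endoderm genes, with exact 95% Poisson intervals and a dotted line at the cut of 10 UMIs. Nanog and Sox2 drop at 5 to 9 endoderm UMIs (6.42 and 67.4 CPM), Pou5f1 declines to 227 CPM only at 100 or more, and Sall4 reaches 130 CPM there.

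Pou5f1 and endoderm transcripts were found in the same droplets. Of the 94 cells, 80 (85.1%) had a Pou5f1 UMI, 81 a Sall4 UMI, 24 a Sox2 UMI and 7 a Nanog UMI. The background without thinning was 8 of 22 fibroblast-like knockout-library cells (36.4%) with a Pou5f1 UMI, 1 with Sox2, 1 with Nanog and none with Sall4, and the shares in endoderm-high cells are read against these. Gata6, the endoderm regulator, was detected in 88 of them, and 75 cells had Pou5f1 together with Gata6. Pou5f1 in single endoderm-high cells ranged from 0 to 1108 CPM with a median of 412. The 3 wild-type cells past the cut had 11 Pou5f1, 3 Sox2, 2 Nanog and 10 Sall4 UMIs, too few to compare.

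Shares of cells were compared after every cell had been thinned at random to 10428 UMIs, which kept 797 wild-type, 568 other knockout and 90 endoderm-high cells and left out 90, 68 and 4 shallower ones. Nanog differed most by genotype: 60.7% of wild-type cells (interval 57.2 to 64.1) and 45.2% of other knockout cells (41.1 to 49.4) had at least 1 UMI, and before thinning 78.8% and 62.6% did. In endoderm-high cells the share was 5.56% (1.83 to 12.5), next to 1 of 19 fibroblast-like cells (5.26%, 0.133 to 26.0) thinned alike, so it does not exceed the background. Nanog RNA was therefore found in fewer knockout cells at equal depth, and it was not detectable above background in the endoderm-high cells.

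Pou5f1 was detected in 98.5% of wild-type, 99.8% of other knockout and 82.2% of endoderm-high cells, against 3 of 19 fibroblast-like cells. Sox2 was detected in 82.1%, 84.3% and 11.1% (5.46 to 19.5) in the same order, against 0 of 19, which allows a share of up to 15.8%. Sall4 was detected in 50.1% (46.5 to 53.6), 56.0% (51.8 to 60.1) and 66.7% (55.9 to 76.3), also against 0 of 19. The Sox2 share in endoderm-high cells thus lies within what the background allows at this depth, whereas those of Pou5f1 and Sall4 do not. By summed level, which uses all UMIs, Sox2 in endoderm-high cells was above the fibroblast-like cells (interval 0.0392 to 8.63 CPM). Unthinned shares of Sall4 were 76.4%, 74.8% and 86.2%, so its order between the genotypes depended on depth. Pou5f1 was found in 878 of 887, 631 of 636 and 80 of 94 unthinned cells, and the shares of Sox2 92.0%, 90.1% and 25.5%.

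**Figure D3:**
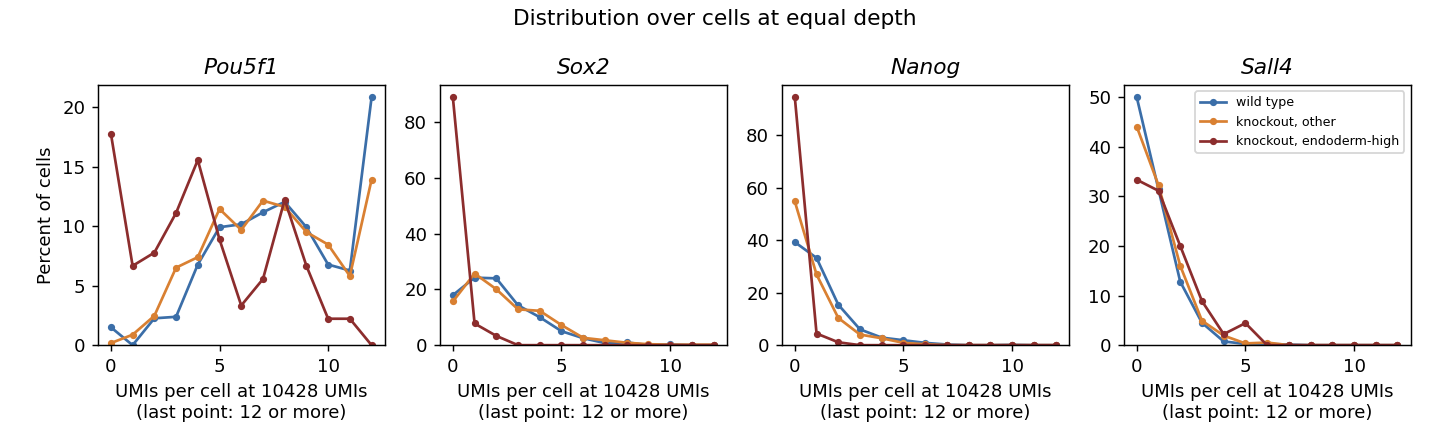
Percent of cells at each number of UMIs of a gene after thinning to 10428 UMIs, for 797 wild-type, 568 other knockout and 90 endoderm-high knockout cells, with cells of 12 or more UMIs in the last point. Nanog is at 0 UMIs in 39.3% of wild-type, 54.8% of other knockout and 94.4% of endoderm-high cells, while Pou5f1 in endoderm-high cells spreads from 0 to 11 UMIs.

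Nanog was also the most uneven of the 4 genes between cells of like depth. Its thinned counts reached 10 UMIs in wild-type and 6 in other knockout cells, with means of 1.11 and 0.769. Cell-to-cell variation was measured as the squared coefficient of variation (CV2) and as its part above Poisson sampling. For Nanog that part was 0.512 in wild-type and 0.776 in other knockout cells, at the 94.5th and 95.8th percentiles of genes with a like mean. For Sox2 it was 0.212 and 0.272 (83.8th and 89.2nd percentiles) and for Sall4 0.338 and 0.283 (87.5th and 84.0th). Pou5f1 varied as other genes of its mean do, with 0.0788 and 0.0750 at the 53.8th and 59.5th percentiles.

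The thinning draw moves such values, so the log2 ratio of CV2 between libraries was taken over 10 draws. For other knockout over wild-type cells the median was 0.59 for Nanog (range 0.52 to 0.88), 0.12 for Pou5f1 (-0.02 to 0.20), 0.10 for Sox2 (0.02 to 0.25) and -0.24 for Sall4 (-0.37 to -0.09). Nanog therefore varied more in the knockout library in all 10 draws, but its mean was lower there too, and CV2 grows as a mean falls. Over the same draws the log2 ratio of the part above Poisson sampling had a median of 0.70 for Nanog (0.56 to 1.33). The means of Nanog differed by too much for it to count among the 2016 genes of like mean, whose median CV2 ratio was -0.01. With endoderm-high cells included the medians were 0.86 for Nanog, 0.50 for Sox2, 0.42 for Pou5f1 and -0.32 for Sall4, so for Sox2 and Pou5f1 most of that ratio was absent without the endoderm-high cells.

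**Figure D4:**
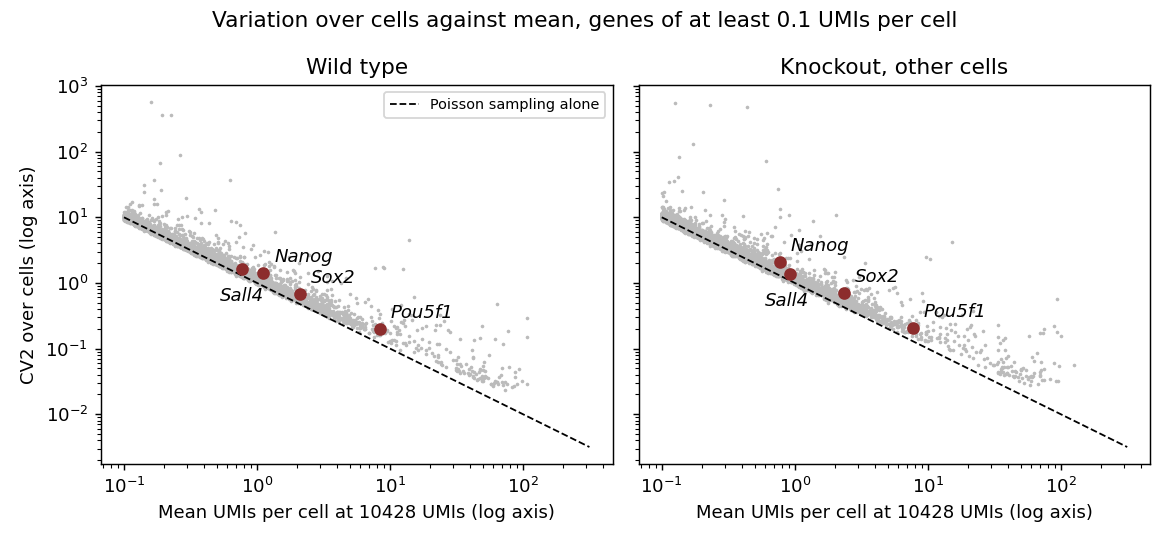
CV2 over cells against the mean UMIs per cell after thinning to 10428 UMIs (both axes log) for genes of at least 0.1 UMIs per cell in grey and the 4 factors in red, in wild-type cells and in other knockout cells, with a dashed line for Poisson sampling alone. Nanog lies above most genes of its mean in both panels (94.5th and 95.8th percentiles), and Pou5f1 lies among them.

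Among single cells the 4 factors were only weakly co-expressed at equal depth. Over the 6 pairs, Pearson correlations of log2(thinned count + 1) had a median of 0.07 in 797 wild-type and 0.06 in 568 other knockout cells. The highest were Sox2 with Sall4 (0.13 and 0.11) and Sox2 with Nanog (0.12 and 0.10), and Pou5f1 with Sall4 was at 0.00 and -0.02. Over all 2372931 pairs of 2179 genes the 5th and 95th percentiles were -0.07 and 0.09 in wild-type and -0.09 and 0.10 in other knockout cells. Both Sox2 pairs lay above the 95th percentile of all pairs, though barely in other knockout cells. For Sox2 with all other genes the 95th percentiles were 0.09 and 0.13, which these pairs passed in the wild type only. Correlations this weak in sparse counts are no finding, and the cells of a set share 1 library. Over all 658 thinned knockout cells Pou5f1 with Sox2 reached 0.25 and Sox2 with Nanog 0.22, against 0.06 and 0.10 without the endoderm-high cells.

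All 4 factors were detected together in 27.5% of wild-type cells (24.4 to 30.7) and in 24.6% of other knockout cells (21.2 to 28.4), where independent detection would give 24.6% and 21.3%. In endoderm-high cells 2 of 90 had all 4 (2.22%), and 49 of 90 (54.4%) had Pou5f1 together with Sall4.

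A further division of the cells moved with Nanog and, among other knockout cells, with Sall4 and Sox2. In part of the cells the share of UMIs from chromosome 8 genes was more than 1.2 times the wild-type median. This held for 85 of 884 wild-type cells (9.62%), 306 of 636 other knockout cells (48.1%) and 60 of 94 endoderm-high cells (63.8%). None of the 4 genes lies on chromosome 8. Among cells under the endoderm cut, Nanog was at 105 CPM in wild-type cells of usual share, 71.9 in wild-type cells of raised share, 93.7 in other knockout cells of usual share and 47.6 in other knockout cells of raised share. Nanog was thus lower in the cells of raised share in both libraries. Its log2 ratio of raised over usual was -0.55 (-0.79 to -0.32) for wild-type cells and -0.98 (-1.16 to -0.80) for other knockout cells. Among other knockout cells Sall4 and Sox2 were lower too, at -0.47 (-0.64 to -0.31) and -0.34 (-0.43 to -0.24). Among wild-type cells Sall4 was at -0.04 (-0.30 to 0.20) and Sox2 at -0.07 (-0.22 to 0.08), with intervals that reached 0. Pou5f1 was at -0.06 for other knockout cells and -0.11 for wild-type cells.

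The genotype difference in Nanog depended on which of these cells were compared. Among cells of usual share, the log2 ratio of other knockout over wild type was -0.17 (-0.29 to -0.05), and among cells of raised share it was -0.60 (-0.86 to -0.32). Sox2 and Sall4 were higher in the knockout among cells of usual share, with ratios of 0.24 and 0.39, and near wild type among cells of raised share, with -0.03 and -0.04. Pou5f1 was at -0.10 and -0.05. The CV2 ratio of Nanog in cells of usual share had a median of 0.19 over 10 draws (0.10 to 0.57). For the part above Poisson sampling that median was 0.34 (0.004 to 1.04). The Nanog difference between the libraries therefore comes with a difference in their makeup by chromosome 8 share, and the part of that makeup in the result was not tested beyond these values.

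**Figure D5:**
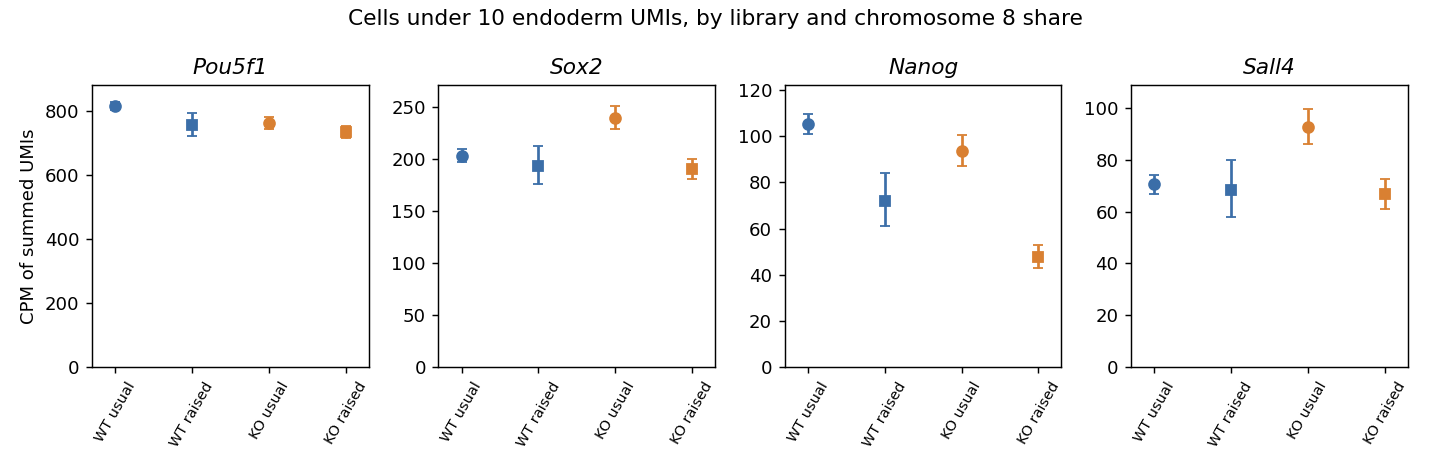
CPM of the summed UMIs of each gene in wild-type (WT) and knockout (KO) cells under 10 endoderm UMIs, split at 1.2 times the wild-type median share of chromosome 8, with exact 95% Poisson intervals. Nanog is at 105 and 71.9 CPM in wild-type cells of usual and raised share and at 93.7 and 47.6 CPM in knockout cells, while Pou5f1 stays between 734 and 817 CPM.

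Within the endoderm-high cells the split touched Pou5f1, which was at 538 CPM in those of raised share and 299 CPM in those of usual share. Their endoderm scores differed too, with medians of 42.5 UMIs in cells of raised share and 65 in cells of usual share. Pou5f1 was lower at higher scores, as given above. How far its gap follows the score or the chromosome 8 share was not tested. Among cells of usual share alone, the log2 ratio of endoderm-high over other knockout cells was -1.35 for Pou5f1, -3.15 for Sox2, -3.25 for Nanog and 0.33 for Sall4. The order of the 4 genes was the same as over all cells, and the interval of Sall4 (-0.01 to 0.64) reached 0.

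Cells with much Nanog were then set beside cells with none, at equal depth and under the same cuts. In the wild type 96 cells had 3 or more thinned Nanog UMIs and 313 had 0, and in other knockout cells 45 and 311 did. The naive network genes summed were higher in the Nanog-rich cells, by a log2 ratio of 0.46 (0.38 to 0.54) in the wild type and 0.55 (0.44 to 0.66) in the knockout. Tbx3, a T-box factor of naive cells, was higher by 0.99 and 1.08, Klf4 by 0.79 and 0.70, and Dppa3, a maternal factor of naive cells and germ line, by 1.08 and 0.83. Of the 11 naive genes, 4 had an interval above 0 in the wild type and 10 in the knockout, and none had one below 0. The same share over all genes was not computed, so these counts do not set the list apart. Thinned Nanog was detected in 34.0% of other knockout cells of raised chromosome 8 share and 56.3% of usual share. In wild-type cells under the endoderm cut these shares were 56.6% and 61.3%. How far the division by Nanog follows chromosome 8 share was not tested. The 8 primed-state genes summed were at -0.13 (-0.38 to 0.10) and -0.46 (-0.79 to -0.16). Among them Pou3f1, a POU factor of primed cells, was lower, at -1.24 and -1.46, while Dnmt3b was at 0.30 and -0.22 and Lef1 at 0.29 and 0.02, with intervals that reached 0.

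In the same division Sox2 was at 0.28 (0.05 to 0.50) and 0.35 (0.05 to 0.62), Sall4 at 0.44 and 0.24, and Pou5f1 at 0.06 and 0.10. Pou5f1 thus hardly differed between cells with much and with no detected Nanog in either library. The intervals of 7 naive genes reached 0 in the wild type as well, among them Zfp42 at 0.02, Klf5 at 0.05, Nr0b1 at 0.21 and Tfcp2l1 at 0.23. Esrrb, an orphan nuclear receptor of the naive network, was at 0.02 (-0.40 to 0.41) in the wild type and 0.94 (0.45 to 1.38) in the knockout.

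The wider network was read from lists of genes. Of 11 naive network genes 10 had at least 10 CPM, and in other knockout against wild-type cells 2 were at least 1.25-fold higher and 3 lower, with a median log2 ratio of -0.03. Of all genes tested, 17.6% were higher and 9.76% lower by that fold, with a median of 0.06, and with so few list genes none of these counts sets a list apart. Dppa3 was the lowest, at 34.6 CPM against 119 (log2 ratio -1.78), followed by Tfcp2l1 (-0.38), and the highest were Nr5a2 (0.50) and Zfp42, also called Rex1 (0.44). Dppa3 lies 77.2 kb from Nanog on chromosome 6, and the neighbours Gdf3 and Slc2a3 stood at 0.12 and -0.28, so the genes around Nanog did not share 1 direction.

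Of 15 partners and known targets of the factors, 5 were at least 1.25-fold higher and 4 lower in other knockout cells, with a median of 0.08, beside the same 17.6% and 9.76% of all genes. The chromatin factor gene Jarid2 (0.67) and Fgf4 (0.55), a growth factor gene controlled by an OCT4 and SOX2 element, were highest, and Lefty1 (-0.95), a Nodal antagonist, and Dnmt3l (-0.66) lowest. Of 8 primed-state genes 4 had at least 10 CPM. The methyltransferase gene Dnmt3a was higher at 1.12 and Lef1 lower at -0.65, with Pou3f1 at 0.18 and Dnmt3b at 0.06. The naive, target and primed lists thus each held genes on both sides.

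Of 9 relatives of the factors, 6 had at least 10 CPM, with 2 higher (Sox4 0.51, Sox11 0.41) and 3 lower, among them Sox15 (-1.11), a SOX gene of pluripotent cells, and Sall1 (-0.46). Their median was -0.19, again beside 17.6% of all genes higher and 9.76% lower. In the other lists few genes reached 10 CPM in this comparison: 4 of 10 endoderm genes outside the cell rule (median 0.07, Sparc 0.41 highest and Apoe -0.34 lowest), the neural gene Tubb3 (0.17), and none of the trophectoderm, mesoderm or fibroblast genes.

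In endoderm-high against other knockout cells the network came apart gene by gene. Of all genes tested 21.3% were at least 1.25-fold lower and 38% higher, with a median of 0.11. A list gene that reaches 10 CPM only through the cells where it is high had to differ, so counts are given here over every gene of a list, whatever its level. The shares of all genes cover only the 6970 genes averaging 10 CPM or more. They are therefore not a like background for counts that include sparser genes. Of the 11 naive network genes 8 were at least 1.25-fold lower and 2 higher, with a median of -1.36. Among those averaging 10 CPM or more, Esrrb (-2.65) and Klf2 (-1.77) were lowest and Tbx3 (1.01) and Klf5 (0.69) highest. Of the 15 partners and targets 9 were lower, led by Fgf4 (-4.75, 4 UMIs in endoderm-high cells) and the Nodal co-receptor gene Tdgf1 (-2.68), and 4 were higher, led by Lefty1 (165 against 71.9 CPM) and Dnmt3l (1.19). Zfp42 was at 0.18, within 1.25-fold and near the median of all genes, so this pluripotency marker was not lower as Sox2 and Nanog were.

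The endoderm genes used for the cell rule were higher by construction, from 5.41 for Gata6 to 8.23 for Cubn. All 10 endoderm genes outside it were higher. Of these, 4 had at least 10 CPM in the other knockout cells as well, namely Serpinh1 (4.90), Lamb1 (4.85), Sparc (4.46) and Apoe (0.90). A further 5 averaged 10 CPM only through the endoderm-high cells, among them the pioneer factor gene Foxa2 (8.78, interval 6.84 to 14.68, from 92 UMIs against 1) and the basement membrane gene Col4a2 (7.12), and Hnf4a stayed under that level.

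Of the 8 primed genes 3 were higher and 3 lower. Dnmt3b (1.24) was higher, Pou3f1 (-2.36) lower and Dnmt3a at -0.05. Fgf5 at 6.83 (71 against 4 UMIs) and Otx2 at 1.57 (29.1 against 9.86 CPM) averaged 10 CPM only through the endoderm-high cells. Of the 9 relatives 2 were higher and 5 lower, with Sall1 at 0.50 and Sox11 lowest (-2.40). Of the trophectoderm genes Plet1 was at 54.7 against 10.6 CPM, and Eomes had 74 against 77 UMIs (33.2 against 4.84 CPM) and averaged 10 CPM only through the endoderm-high cells. The other 5 trophectoderm genes were under that level. Hand1 had 2 against 27 UMIs (0.897 against 1.70 CPM) and Ascl2 3 against 50 (1.35 against 3.14 CPM). Gata3 had 8 against 4 UMIs (3.59 against 0.251 CPM) and Cdx2 3 against 11 (1.35 against 0.691 CPM). Of the 6 trophectoderm genes with a UMI, 4 were at least 1.25-fold higher and 2 lower. The neural gene Tubb3 was at -2.29, and no mesoderm or fibroblast gene reached 10 CPM.

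The genes that most resembled each factor were ranked by Pearson correlation over the 797 thinned wild-type cells among 2316 genes. Pou5f1 came closest to Chchd10 (0.37), Mkrn1 (0.33), Dppa5a (0.32), Mylpf (0.25) and H2afz (0.22), and in other knockout cells these stood at 0.13, 0.17, 0.25, 0.11 and 0.25. Sox2 came closest to Dppa5a (0.24), Gpx4 (0.23), Mybl2 (0.20), Chchd10 (0.19) and Tbx3 (0.18), and in other knockout cells these stood at 0.03, 0.10, 0.17, 0.14 and 0.21. Nanog came closest to Dppa3 (0.20), Mylpf (0.20), Sgk1 (0.18), Gpx4 (0.18) and Klf4 (0.16). In other knockout cells Mylpf (0.24), Gpx4 (0.20) and Klf4 (0.17) had like values, whereas Sgk1 stood at 0.09 and Dppa3 at 0.05, where the mean of Dppa3 was 0.391 UMIs per cell against 1.14. Sall4 came closest to Actb (0.23), Spry2 (0.20), Rpgrip1 (0.19), Enah (0.19) and Cbx3 (0.18), which stood at 0.09, 0.14, 0.10, 0.13 and 0.14 in other knockout cells. The mean of Actb there was 3.02 UMIs against 12.5. No core factor was among the 5 closest genes of another.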

How the data were processed

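The deposited values are raw UMI counts, stored as whole numbers per gene and cell in MatrixMarket files, per the file headers. The submitters' processing notes name Cell Ranger 2.0.0, Seurat 3.1.1 and the build mm10 without giving their roles. The calling of cells, the gene annotation and the treatment of reads shared between genes are not given in the sources used here. The bulk RNA sequencing named in the design was not analysed here.

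The 4 genes, the gene lists and the tests were chosen with earlier results of these data known. Counts were handled in Python 3.11.15 with numpy 2.4.6, scipy 1.17.1 and pandas 2.3.3. Scrublet in scanpy 1.11.5, run per library, called 2 knockout and 5 wild-type doublets (0.201% and 0.544%), so some doublets probably remain. Fibroblast-like cells had 20 or more UMIs over Col1a1, Col1a2, Col3a1, Bgn, Postn, Dcn, Lum and Mmp2 (22 knockout and 10 wild-type cells within the mt- limits), with 1 and 4 cells at 5 to 19 UMIs.

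Levels are sums over cells scaled to CPM, with Poisson intervals. Ratios add 0.5 counts to each sum and have intervals exact conditional on the total. Shares have Clopper-Pearson intervals, and a count of 0 allows 3 counts of the total. Backgrounds use genes averaging 10 CPM or more over the sets compared. Thinning was without replacement, to the 10th percentile of totals. Genes of like mean have 0.5 or more thinned UMIs per cell and means within 0.5 on the log2 scale. The chromosome 8 share left out ribosomal protein genes, sex chromosomes and genes above 500 CPM. From each list the 2 highest and 2 lowest ratios are named, and for likeness the 5 highest correlations. Neighbours of Nanog, and Klf4, Tbx3, Dppa3, Pou3f1 and Esrrb in the division by Nanog, were named after their values were seen. Of the matrix genes 27645 matched GENCODE M21 by identifier. The calculations were tested on simulated data. TMM factors came from edgeR 4.0.16.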

Additional observations from a re-analysis of the deposited data

How the results depend on the processing

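In all, 23 results were recomputed under 221 alternatives in sum: 152 values kept their direction and moved by less than the counting interval or a fixed tolerance, 62 moved by more and 7 reversed. The cause was not tested, unless the alternative's own cells show it. No paired analysis was possible because there is only 1 library of each genotype. Alternatives chosen after seeing the data were a fibroblast-like cut of 10 UMIs and, for shares, variation and co-expression, keeping called doublets, and all alternatives for the level of other knockout over wild-type cells.

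For the log2 level of all knockout over wild-type cells, 2 alternatives reversed Sox2, to 0.094 without endoderm-high cells and to 0.13 in cells of usual chromosome 8 share. Without endoderm-high cells Pou5f1 was at -0.11 and Nanog at -0.52, and in cells of usual chromosome 8 share Nanog was at -0.28 and Sall4 at 0.43. Scaling by the median of ratios gave -0.27 for Pou5f1 and -0.16 for Sox2, and TMM gave -0.29, -0.18, -0.81 and 0.14 for Pou5f1, Sox2, Nanog and Sall4. Without the lower mt- limit these were -0.082, -0.23, -0.46 and 0.14. Sall4 was at 0.063 with each cell weighted alike and 0.36 in cells of at least 15000 UMIs, and Pou5f1 at -0.22 with fibroblast-like cells kept.

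For the level of other knockout over wild-type cells, Sall4 reversed to -0.023 with each cell weighted alike and Sox2 to -0.073 without the lower mt- limit, where Pou5f1 was at -0.013, Nanog at -0.30 and Sall4 at 0.056. Pou5f1 was at -0.17 by the median of ratios, -0.18 by TMM and -0.15 with fibroblast-like cells kept, Sox2 was at 0.027 by TMM, and Sall4 was at 0.30 in cells of at least 15000 UMIs. In cells of usual chromosome 8 share Sox2, Nanog and Sall4 were at 0.24, -0.16 and 0.39.

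For endoderm-high over other knockout cells, Pou5f1 was at -0.82 by the median of ratios, -0.89 by TMM, -0.84 with cells weighted alike, -1.35 in cells of usual chromosome 8 share, -0.61 with the cut at 5 UMIs and -0.89 at 20. Nanog was at -3.25 in cells of usual chromosome 8 share, and Sox2 at -4.09 with the cut at 20.

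For the share of cells with a UMI (knockout minus wild type, percentage points), Sox2 reversed to 2.27 without endoderm-high cells, where Pou5f1 was at 1.33 and Nanog at -15.5. Sall4 reversed to -0.136 without thinning. In cells of usual chromosome 8 share Sox2 was at -1.54 and Nanog at -9.36, Sox2 was at -13.0 without the lower mt- limit, and at a minimum of 2 UMIs Pou5f1 was at -2.75 and Nanog at -11.5.

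For the log2 ratio of CV2, Sall4 reversed to 0.27 without thinning, where Pou5f1 was at 0.50 and Sox2 at 0.63. Without endoderm-high cells Pou5f1, Sox2 and Nanog were at 0.043, 0.028 and 0.56. In cells of usual chromosome 8 share Sox2, Nanog and Sall4 were at 0.25, 0.30 and -0.50, and without the lower mt- limit Sox2 and Sall4 were at 0.69 and -0.16. Nanog was at 1.19 when thinned to 12000 UMIs, and Pou5f1 at 0.46 with fibroblast-like cells kept. The part above Poisson sampling gave 0.56, 1.07, 0.98 and -0.18 for Pou5f1, Sox2, Nanog and Sall4. The median correlation of the 6 pairs without thinning was 0.28 (knockout) and 0.30 (wild type), and 0.15 in knockout cells of usual chromosome 8 share.

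With 8 Nanog and 40 Sox2 UMIs in the endoderm-high cells, depth limits differences among those cells, and no setting replaces a second library.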

Other observations

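Knockout cells under 1% mt- UMIs, left out above, showed another balance of the factors. In 237 such cells under the endoderm cut, Pou5f1 was at 1102 CPM, Nanog at 156, Sox2 at 45.9 and Sall4 at 30.0. The medians of these cells were 8552 UMIs and 2078 detected genes, against 24622 and 4278 in other knockout cells. Against the other knockout cells the log2 ratios were 0.56 (0.50 to 0.62) for Pou5f1, 1.14 (0.97 to 1.30) for Nanog, -2.22 (-2.50 to -1.97) for Sox2 and -1.40 (-1.75 to -1.09) for Sall4. The transcriptome as a whole was spread widely here. Over 5922 genes averaging 10 CPM or more, the 10th and 90th percentiles of the ratio were -1.95 and 0.81. Pou5f1 and Sall4 lay inside that range, at the 80.7th and 16.9th percentiles. Nanog and Sox2 lay outside it, at the 97.7th and 7.18th. Nanog and Sox2, which were both low in endoderm-high cells, thus stood on opposite sides here. At an equal depth of 10428 UMIs, which 82 of these and 568 other knockout cells reached, the mean UMIs per cell were 11.4 against 7.76 for Pou5f1, 1.62 against 0.769 for Nanog, 0.415 against 2.34 for Sox2 and 0.305 against 0.917 for Sall4, so the differences were as large at equal depth. The 16 wild-type cells under 1% mt- UMIs had Sox2 at 119 CPM (82.3 to 166) and Sall4 at 17.5 CPM (5.68 to 40.8). Both were below the 202 and 70.4 CPM of the analysed wild-type cells. Nanog was at 129 CPM (91.1 to 178), an interval that holds the 102 CPM of the analysed wild-type cells. Pou5f1 was at 689 CPM (596 to 792), below their 809 CPM, whereas it was higher in the knockout cells under 1%.

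A few analysed cells had no Pou5f1 UMI: 9 of 887 wild-type, 5 of 636 other knockout and 14 of 94 endoderm-high cells. The genes named here were chosen after their values were seen. In the 9 wild-type cells (median 9840 UMIs), Lyz2 and Wfdc17, genes of myeloid cells, had 291 and 317 UMIs in 2 cells, the placental gene Rhox6 had 392 UMIs in 2 cells, and 4 cells had 5 or more fibroblast UMIs. In the 5 other knockout cells (median 7456 UMIs) Lyz2 had 530 and Wfdc17 219 UMIs, both in 3 cells. The 14 endoderm-high cells (median 20296.5 UMIs) all had Sall4, with 33 UMIs (115 CPM), like the 112 CPM in endoderm-high cells with Pou5f1. Among the 14 cells Wfdc17 had 398 and Ccl6 171 UMIs, each in 1 cell, and Lyz2 67 UMIs in 2 cells, and among the 80 endoderm-high cells with Pou5f1 Lyz2 was at 166 CPM from 3 cells.

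Near Nanog, the glucose transporter gene Slc2a3 lies 13.2 kb away at its nearest end and had 2389 UMIs in the endoderm-high cells, a log2 ratio of 2.04 over other knockout cells, where Nanog was at -4.22 and Gdf3, at 97.4 kb, at -2.53. Near Sall4, Zfp64 at 125.4 kb stood at 0.16 for other knockout over wild-type cells, next to 0.18 for Sall4.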
